A study of Mus musculus with 6 samples.

Results

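Cell cycle and DNA replication genes were followed in whole adrenal glands of mice that lack chromogranin A (Chga), the granule protein of chromaffin cells, and of wild-type mice. The set was a fixed list of 46 gene symbols, from licensing of replication origins to the mitotic spindle. It was chosen with earlier results of these data known, so counts over it describe the list and are not tests. Of the 46 symbols, 43 had at least 1 probe set with a single gene name, 60 probe sets in all, among 8251 such genes on the array. Ccnb1 and Cdc25b had no listed probe set, and the probe sets of Tyms were assigned to several genes, so these 3 members have no value here. Each gene is represented by its brightest probe set, the one with the highest mean over the 6 arrays.

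Chga knockout mice and wild-type mice gave 3 arrays each, with 1 RNA sample per array. All animals were male and 12 weeks old, and the labels name each strain only by its Chga genotype, with no genetic background, litter or other allele. The series counts 3 mice a group, so each array was read as 1 animal. Values are linear MAS5 signals, which the authors had scaled to a common mean, and the median signal of an array lay between 953 and 1092. Chga itself gave 1188, 858 and 951 in knockout glands, against 46719, 30213 and 35306 in wild-type glands, so every array matched its label. Its position relative to the deletion was not analysed here.

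Cells copy their DNA in S phase and divide in mitosis, and many of the genes needed are transcribed mainly in dividing cells. D-type and E-type cyclins with their kinases open the way into S phase by releasing E2F factors, the Mcm helicase and the DNA polymerases then copy the genome, and Cdk1 with B-type cyclins drives mitosis. Kinase inhibitors of the Cdkn1 family hold these kinases back. In the adult adrenal gland most cells are not dividing, and new steroid-producing cells of the cortex arise mainly near the capsule.

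Promoters of many of these genes carry short sequence elements known to bind cell cycle regulators: the CCAAT box of the factor NF-Y, the cell cycle homology region (CHR) and E2F sites. The windows below are those of the 3 members with the smallest unadjusted p among the members that were bright enough to test and have an entry in the RefSeq promoter table, and all 3 had lower signals in knockout glands. They run from 250 bases before to 50 bases after the annotated start, on GRCm38.p6, written 5′ to 3′ on the strand of the gene. Cks2 lies at chr13:51644982-51645281 on the plus strand, Rrm2 at chr12:24708004-24708303 on the plus strand and Cdk1 at chr10:69352863-69353162 on the minus strand. Capitals mark CCAAT, the CHR letters TTTGAA or TTTAAA, and the E2F letters TTTCCCGC, TTTGGCGC, TTTCGCGC or TTTGCCGC, each searched on both strands, so that ATTGG is CCAAT read from the other strand.
Cks2: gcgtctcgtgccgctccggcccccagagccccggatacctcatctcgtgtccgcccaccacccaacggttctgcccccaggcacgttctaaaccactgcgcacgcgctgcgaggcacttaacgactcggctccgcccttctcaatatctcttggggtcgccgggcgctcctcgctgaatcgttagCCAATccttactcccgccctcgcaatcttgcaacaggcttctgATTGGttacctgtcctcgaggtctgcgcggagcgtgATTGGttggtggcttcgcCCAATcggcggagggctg
Rrm2: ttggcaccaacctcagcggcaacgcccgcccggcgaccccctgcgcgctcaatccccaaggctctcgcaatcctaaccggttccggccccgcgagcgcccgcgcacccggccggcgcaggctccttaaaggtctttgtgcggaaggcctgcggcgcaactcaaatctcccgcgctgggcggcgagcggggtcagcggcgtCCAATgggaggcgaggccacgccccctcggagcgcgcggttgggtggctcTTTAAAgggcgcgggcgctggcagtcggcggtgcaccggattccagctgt
Cdk1: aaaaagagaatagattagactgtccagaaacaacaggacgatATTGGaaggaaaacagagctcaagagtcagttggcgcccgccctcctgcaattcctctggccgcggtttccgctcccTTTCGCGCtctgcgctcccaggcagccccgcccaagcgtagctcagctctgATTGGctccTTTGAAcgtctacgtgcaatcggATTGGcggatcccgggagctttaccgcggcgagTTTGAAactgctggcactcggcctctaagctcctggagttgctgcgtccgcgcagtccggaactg

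The Cks2 window held 4 CCAAT boxes, with starts 65 and 22 bases before and 14 and 32 bases after the annotated start, and neither CHR nor E2F letters. The Rrm2 window held 1 CCAAT box, 50 bases before the start, and 1 CHR match at the start itself. The Cdk1 window held 3 CCAAT boxes, 2 CHR matches and 1 E2F match, the last 131 bases before the start. No 2 matches overlapped in these 3 windows. Of the 44 windows of 39 members in the table, 65.9% held a CCAAT box, against 37.4% of all 32851 windows. CHR letters stood in 43.2% of the members' windows and in 27.6% of all windows, and E2F letters in 20.5% and 2.26%. A match describes the letters in the window and does not show that a factor binds there.

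Genes of DNA replication and mitosis had lower signals in the knockout adrenal gland, with Cks2 the only member past the threshold. Of 43 members, 37 had a lower mean log2 signal in knockout glands and 6 a higher one, and the median log2 change was -0.65, against 0.00 over all 8251 genes. For 21 members all 3 knockout arrays lay below all 3 wild-type arrays, 21 of 43, where the same was found for 7.07% of all genes. For 2 members, Ccnd2 and Cdkn1b, all 3 knockout arrays lay above, against 7.09% of all genes. As RNA came from whole glands, fewer dividing cells and less RNA of these genes per cell cannot be told apart.

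Groups were compared with limma on log2(signal + 16) after probe sets whose mean log2 value corresponds to a signal under about 582 had been left out. On this scale fold changes of dim genes are understated. The filter left 33 members, and 10 were too dim to test. With Benjamini-Hochberg adjustment over all 7453 probe sets tested, 1 member fell, 0 rose and 32 did not pass, beside 0.282% of all tested probe sets called lower and 0.161% called higher. At an unadjusted p under 0.05, 15 of the 33 tested members were lower and 1 was higher, against 6.25% and 5.06% of all tested probe sets.

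**Figure D1:**
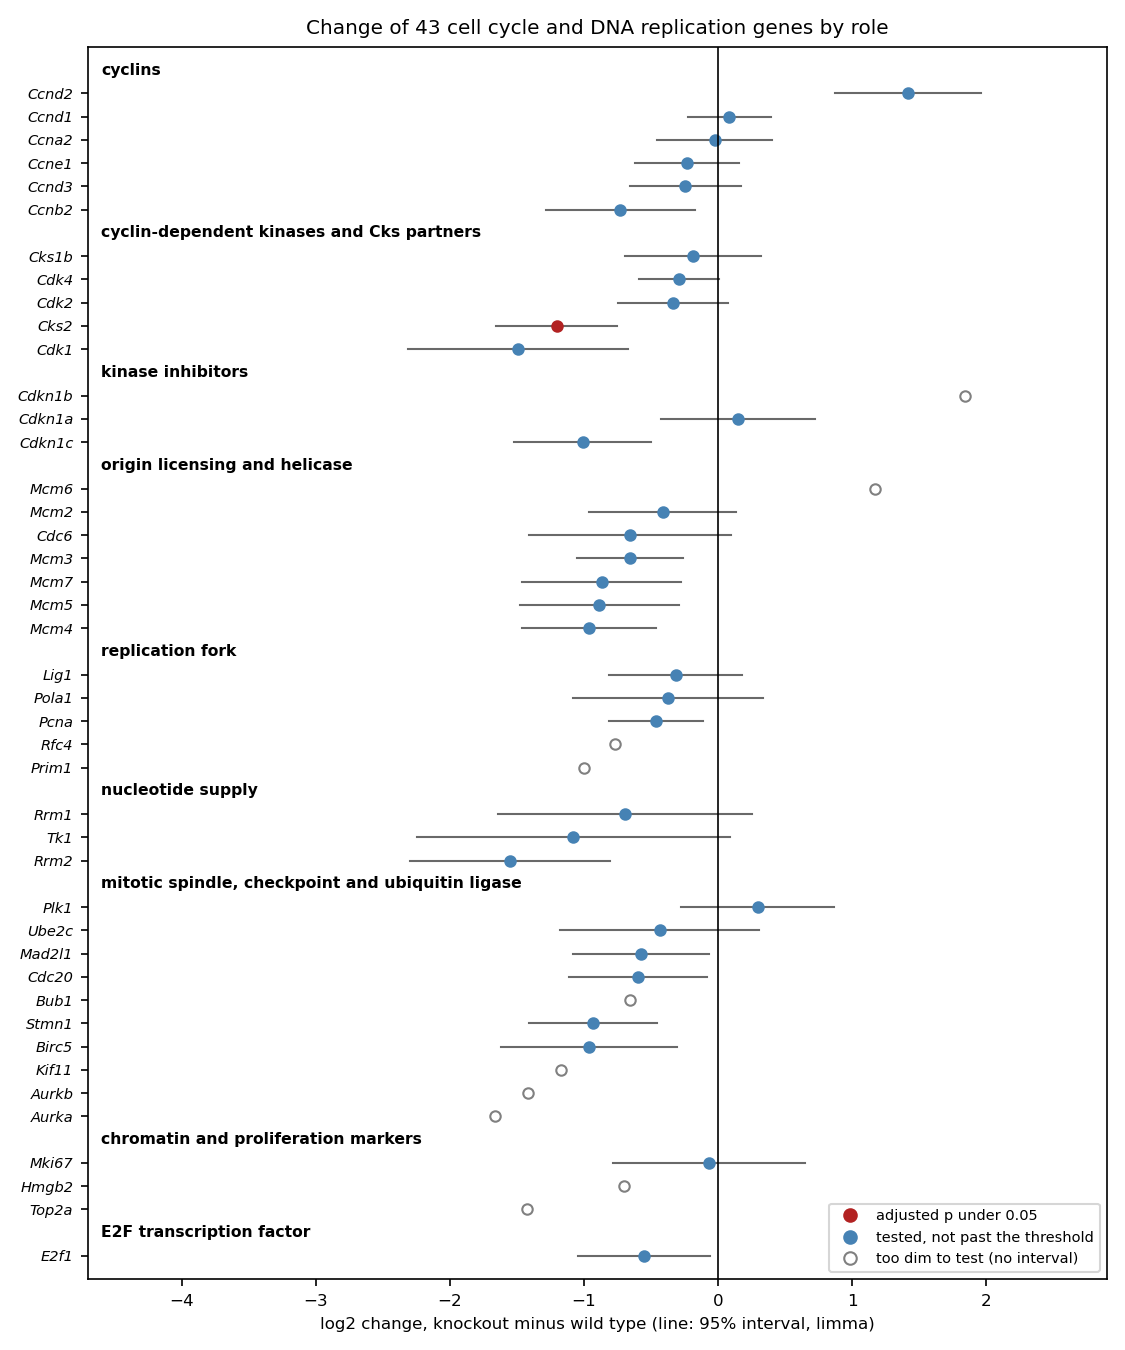
Log2 change (knockout minus wild type, x axis) of the 43 measured members, grouped by role down the page. Filled points are tested genes with their 95% interval from limma, with Cks2 in red as the single gene past the threshold, and open points are genes too dim to test. Most points lie left of 0, while Ccnd2 stands at 1.42.

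Among the cyclin-dependent kinases and their small Cks partners, Cks2 and Cdk1 had the most negative log2 changes. Cks2, which binds cyclin-dependent kinases, had 1228, 1186 and 1003 in knockout glands, against 2306, 2466 and 3214 in wild-type glands. The groups did not overlap, and each knockout value was close to the other knockout values. Cks2 fell 2.30-fold (log2 change -1.20 ± 0.20 SE, limma adjusted p = 0.045). When arrays were left out in turn, Cks2 passed only without knockout array 1, and its limma adjusted p ranged from 0.0339 to 0.191 over the 6 fits. It was also lost after quantile, median and cyclic loess scaling of the arrays (adjusted p = 0.0612, 0.0668 and 0.0562), with log2 changes between -1.19 and -1.18.

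Cks1b, the close paralogue of Cks2, had 4052, 3426 and 3601 in knockout glands, against 5348, 2938 and 4712 in wild-type glands. Its groups overlapped, with the lowest value on wild-type array 2. The log2 change was -0.19 with a 95% interval of -0.70 to 0.32 (limma adjusted p = 0.791). Whether the changes of Cks2 and Cks1b differ was not tested.

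Cdk1, the kinase that drives entry into mitosis, gave 748, 1574 and 530 in knockout glands, against 2183, 2220 and 2984 in wild-type glands. All knockout values were below all wild-type values, and knockout array 2 stood above the other knockout arrays. The log2 change was -1.49 ± 0.36 SE and did not pass (limma adjusted p = 0.192), but it passed without knockout array 2 (-1.93, limma adjusted p = 0.0318). In the other 5 fits with 1 array left out the limma adjusted p lay between 0.149 and 0.497, and the smallest change was -1.15. Cdk2, which acts in S phase, had 1501, 1640 and 1459 in knockout glands, against 1694, 2158 and 2000 in wild-type glands. Cdk4, the partner of D-type cyclins, had 10735, 11677 and 9975 in knockout glands, against 12876, 12235 and 14542 in wild-type glands. For Cdk2 and Cdk4 too the groups did not overlap, but the log2 changes were small, -0.34 and -0.29 (limma adjusted p = 0.512 and 0.449).

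Of 6 cyclins, 4 had lower and 2 higher mean log2 signals in knockout glands, and 0 passed the threshold. Ccnd2, a D-type cyclin that responds to growth signals, had 5940, 8867 and 9530 in knockout glands, against 3488, 2176 and 3427 in wild-type glands. Every knockout value was above every wild-type value. The log2 change was 1.42 ± 0.24 SE, a 2.67-fold higher signal, and narrowly missed the threshold (limma adjusted p = 0.0502). Without knockout array 1 it passed, with a log2 change of 1.63 (limma adjusted p = 0.0126). Ccnd2 did not pass in the other 5 such fits (limma adjusted p between 0.0568 and 0.261), and with knockout array 1 as the single knockout array the change was 0.999.

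Of the other D-type cyclins, Ccnd1 had 5489, 4731 and 5256 in knockout glands, against 5102, 4652 and 4825 in wild-type glands. Ccnd3 had 9590, 12360 and 14998 in knockout glands, against 14122, 16504 and 12704 in wild-type glands. Both pairs of groups overlapped. The 95% intervals of their log2 changes ran from -0.23 to 0.40 for Ccnd1 and from -0.66 to 0.17 for Ccnd3.

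Of the cyclins of later phases, Ccnb2, a B-type cyclin of mitosis, had 2476, 3741 and 2921 in knockout glands, against 3737, 4806 and 6917 in wild-type glands. The groups met, as knockout array 2 and wild-type array 1 were nearly equal. Its log2 change was -0.73 ± 0.25 SE (limma adjusted p = 0.355). Ccne1, the cyclin of S phase entry, had a log2 change of -0.24 with a 95% interval of -0.62 to 0.15. Ccna2, the cyclin of S phase and early mitosis, had one of -0.03 (-0.46 to 0.40), with overlapping groups for both.

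Of the kinase inhibitors, Cdkn1c, an imprinted inhibitor with known roles in adrenal development, had 42353, 24446 and 25214 in knockout glands, against 70441, 48544 and 62532 in wild-type glands. All knockout values lay below all wild-type values, and knockout array 1 was nearest to wild type. The signal was 2.02-fold lower (log2 change -1.01 ± 0.23 SE, limma adjusted p = 0.153). It passed without knockout array 1 (-1.27, limma adjusted p = 0.00995), while the limma adjusted p lay between 0.18 and 0.485 when any other single array was left out, and the change was -0.50 with knockout array 1 as the single knockout array. Cdkn1a, the inhibitor induced by p53, had 2281, 1479 and 1528 in knockout glands, against 1760, 1828 and 1171 in wild-type glands, with overlapping groups and a 95% interval of -0.42 to 0.72.

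Cdkn1b, an inhibitor that keeps resting cells out of S phase, was too dim to test. It read 447, 281 and 316 in knockout glands, against 257, 10.5 and 122 in wild-type glands. Its other probe set read 115, 114 and 187 in knockout glands, against 105, 96.3 and 113 in wild-type glands. On both probe sets the knockout values were the higher ones without overlap, though knockout array 2 and wild-type array 3 of the second were nearly equal.

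**Figure D2:**
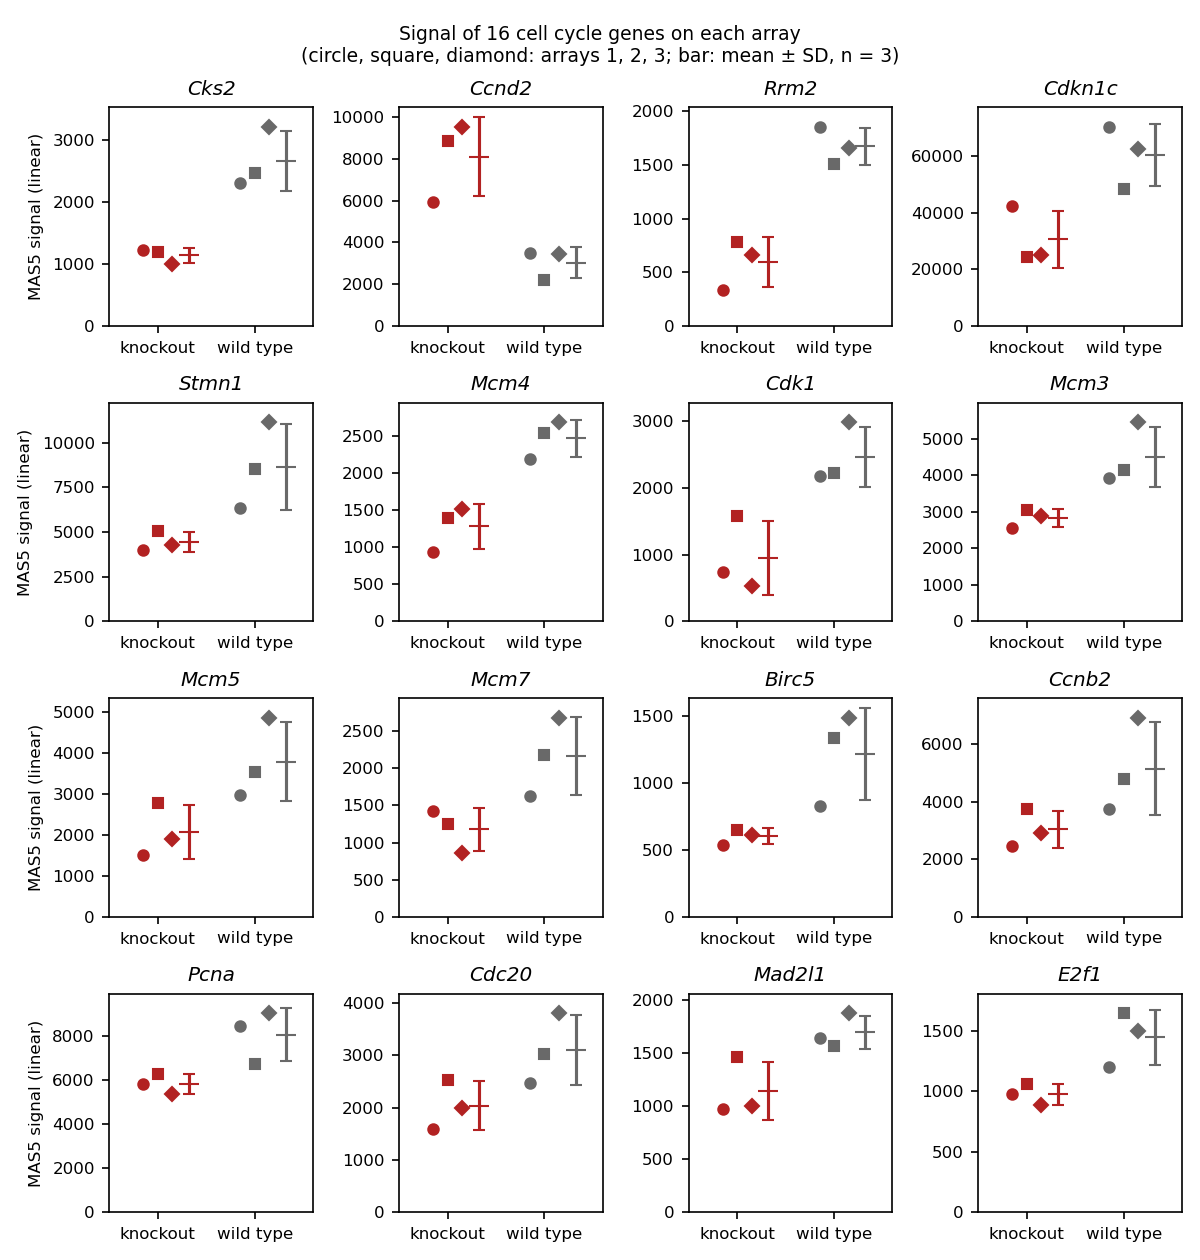
MAS5 signal on a linear axis that starts at 0, for the 16 tested members with the smallest unadjusted p, with 3 knockout arrays on the left and 3 wild-type arrays on the right of each panel. Bars give the mean ± SD (n = 3). The knockout points lie below the wild-type points for 13 of the 16 genes, above them for Ccnd2, and overlap them for Ccnb2 and Cdc20. The 16 were picked by p from this same comparison, so their separation follows largely from the choice. Over all genes 7.07% lay below and 7.09% above.

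The Mcm proteins form a ring that is loaded at origins with the help of Cdc6 and unwinds DNA ahead of the polymerases. All 6 testable genes of this role had negative log2 changes, from -0.96 to -0.41, where 2850 of all 5663 tested genes were negative. For 4 of the 6 all knockout values lay below all wild-type values, which was found for 7.07% of all genes. At the adjusted threshold 0 of the 6 passed. Mcm4 had 941, 1388 and 1511 in knockout glands, against 2189, 2531 and 2679 in wild-type glands (log2 change -0.96 ± 0.22 SE, limma adjusted p = 0.166). Mcm3 had 2550, 3050 and 2880 in knockout glands, against 3929, 4151 and 5443 in wild-type glands, and a second Mcm3 probe set also separated the groups (962, 1124 and 1122 against 1901, 1860 and 2295).

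Mcm5 had 1508, 2783 and 1887 in knockout glands, against 2973, 3518 and 4847 in wild-type glands. Mcm7 had 1418, 1249 and 861 in knockout glands, against 1623, 2182 and 2676 in wild-type glands. Both sets of values were separated, Mcm5 by a narrow margin between knockout array 2 and wild-type array 1, with log2 changes of -0.89 and -0.87 (limma adjusted p = 0.278 and 0.287). Mcm2 and Cdc6 had log2 changes of -0.41 and -0.66 with overlapping groups. Mcm6 was dim, between 13.01 and 366 on the 6 arrays, and its log2 change of 1.17 has no test. A second Mcm5 probe set, also too dim to test, went the other way, with 886, 457 and 619 in knockout glands, against 323, 343 and 448 in wild-type glands.

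Genes that supply nucleotides for DNA synthesis had a median log2 change of -1.08 over 3 genes, and of -0.57 without knockout array 1. Rrm2, the S phase subunit of ribonucleotide reductase, had 333, 787 and 660 in knockout glands, against 1856, 1505 and 1659 in wild-type glands. The groups were far apart, and knockout array 1 was the lowest of the 6. The log2 change of Rrm2 was -1.55 ± 0.33 SE, a 2.93-fold lower signal (limma adjusted p = 0.129). Its mean log2 value in knockout glands lay just under the dim filter, so Rrm2 was tested only through its wild-type values.

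Rrm1, the partner subunit that is present through more of the cycle, had 711, 906 and 970 in knockout glands, against 1623, 682 and 2440 in wild-type glands. The groups overlapped because wild-type array 2 had the lowest value of all. Tk1, the thymidine kinase of S phase, had 635, 2694 and 3100 in knockout glands, against 2849, 4221 and 4248 in wild-type glands. Knockout array 1 stood apart from the other knockout arrays there. The log2 change of Tk1 was -1.08 ± 0.52 SE with all arrays (limma adjusted p = 0.475) and -0.36 without knockout array 1 (limma adjusted p = 0.455).

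At the replication fork, Pcna, the sliding clamp of the polymerases, had 5835, 6267 and 5378 in knockout glands, against 8459, 6726 and 9028 in wild-type glands. The groups did not overlap and the log2 change was -0.46 ± 0.16 SE (limma adjusted p = 0.355). Pola1, a polymerase subunit, and Lig1, the ligase that joins Okazaki fragments, had log2 changes of -0.37 and -0.32 with overlapping groups. Pola1 too had a mean log2 value in knockout glands just under the dim filter and was tested only through its wild-type values. The primase gene Prim1 read 88.5, 199 and 135 in knockout glands, against 360, 223 and 288 in wild-type glands. The clamp loader gene Rfc4 read 396, 466 and 368 in knockout glands, against 693, 990 and 511 in wild-type glands. Prim1 and Rfc4 were too dim to test, and the groups did not overlap for either.

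Of 10 genes of the spindle, its checkpoint and the mitotic ubiquitin ligase, 9 had lower mean log2 signals in knockout glands. Stmn1, a regulator of microtubule assembly, had 3975, 5062 and 4275 in knockout glands, against 6325, 8527 and 11136 in wild-type glands. The groups did not overlap, and the wild-type values spread more widely than the knockout values. The log2 change was -0.93 ± 0.21 SE (limma adjusted p = 0.155), and it passed without wild-type array 1 (-1.14, limma adjusted p = 0.0487) but in none of the other 5 such fits (limma adjusted p between 0.125 and 0.485).

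Birc5, the survivin gene of the chromosomal passenger complex, had 534, 651 and 613 in knockout glands, against 829, 1333 and 1482 in wild-type glands. Mad2l1, a spindle checkpoint gene, had 975, 1458 and 999 in knockout glands, against 1635, 1567 and 1870 in wild-type glands. Neither gene's groups overlapped, with log2 changes of -0.96 and -0.58 (limma adjusted p = 0.289 and 0.402). Cdc20, an activator of the ubiquitin ligase that ends mitosis, had 1597, 2529 and 1985 in knockout glands, against 2463, 3011 and 3794 in wild-type glands, with overlap at knockout array 2. Ube2c, the conjugating enzyme of the same ligase, had a log2 change of -0.44 with a 95% interval of -1.18 to 0.31.

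4 mitotic genes were too dim to test. The mitotic kinase Aurka read 59.9, 398 and 382 in knockout glands, against 673, 551 and 1005 in wild-type glands, and its relative Aurkb, a passenger complex kinase, read 411, 301 and 269 in knockout glands, against 1036, 526 and 1282 in wild-type glands. The spindle motor Kif11 read 117, 372 and 279 in knockout glands, against 459, 604 and 571 in wild-type glands. For these 3 genes no knockout value reached a wild-type value. Bub1, another checkpoint kinase, overlapped between groups.

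Plk1, a mitotic kinase, gave different answers by probe set. Its brightest one, of a kind whose probes can match related sequences, had 2393, 2088 and 4157 in knockout glands, against 2407, 2159 and 2154 in wild-type glands, with overlap and 1 high value on knockout array 3. Another Plk1 probe set had 1250, 1316 and 1462 in knockout glands, against 2081, 2139 and 1882 in wild-type glands, with no overlap (log2 change -0.59, limma adjusted p = 0.28).

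The general proliferation marker Mki67 split in the same way. Its brightest probe set had 789, 863 and 1429 in knockout glands, against 820, 1443 and 951 in wild-type glands, a log2 change of -0.07 with a 95% interval of -0.78 to 0.65. Its other probe set, too dim to test, read 152, 357 and 60.4 in knockout glands, against 539, 861 and 635 in wild-type glands, without overlap. Top2a, the topoisomerase of dividing cells, read 48.4, 264 and 247 in knockout glands, against 192, 455 and 917 in wild-type glands, with overlap. The chromatin protein gene Hmgb2 read 405, 504 and 302 in knockout glands, against 542, 729 and 708 in wild-type glands, without overlap.

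E2f1, a transcription factor that switches on S phase genes, had 978, 1058 and 888 in knockout glands, against 1199, 1643 and 1495 in wild-type glands. The groups did not overlap, and the log2 change was -0.55 ± 0.22 SE (limma adjusted p = 0.403). This probe set is of the same kind as the brightest one of Plk1. The other E2f1 probe set, too dim to test, overlapped between groups. It read 75.9, 317 and 105 in knockout glands, against 77.0, 445 and 534 in wild-type glands.

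Over all 60 probe sets of the members, 50 had lower mean log2 signals in knockout glands, 26 had all knockout arrays below all wild-type arrays and 4 had them above. Among all genes by brightest probe set the shares were 7.07% below and 7.09% above. Shares over all probe sets were not counted. Of the less bright probe sets, 5 separated the groups with lower knockout values, those of Plk1, Mki67, Mcm3, Cdk4 and Ccnd1. For 2, those of Cdkn1b and Mcm5, the knockout values were the higher ones. That of Cdk4 had 1602, 1345 and 1620 in knockout glands, against 5152, 2541 and 3781 in wild-type glands (log2 change -1.27, limma adjusted p = 0.0965), a larger change than the -0.29 of its brightest probe set. That of Ccnd1 had 1873, 1612 and 1622 in knockout glands, against 2403, 1950 and 2446 in wild-type glands (log2 change -0.41, limma adjusted p = 0.439), where the brightest probe set gave 0.08. Probe sets of a gene can read different stretches or isoforms of its transcript.

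**Figure D3:**
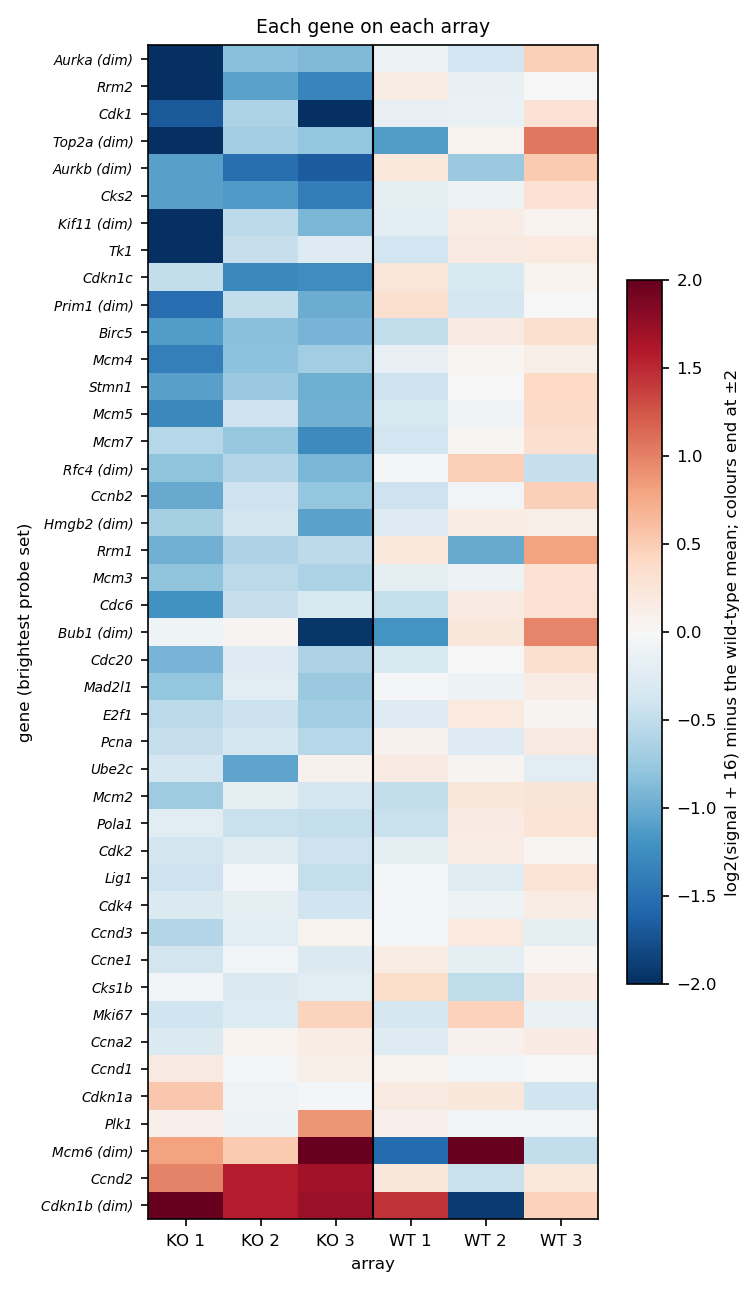
Each row is a member and each column an array, knockout arrays (KO) left and wild-type arrays (WT) right, and colour gives log2(signal + 16) minus the mean of the 3 wild-type arrays. Rows are ordered by log2 change. Blue fills most of the 3 knockout columns from the top, and Ccnd2, Cdkn1b and Mcm6 form the red end at the bottom.

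The size of the difference varied between arrays. The median over the 43 members of the log2 value relative to the wild-type mean was -0.67, -0.41 and -0.61 on the 3 knockout arrays in order of replicate number, against -0.17, -0.01 and 0.17 on the 3 wild-type arrays. For all 5663 tested genes the same medians lay between -0.01 and 0.03. Knockout array 1 held the lowest of the 6 values for 20 of 43 members, against 15.7% of all genes. Wild-type array 3 held the highest value for 24 of 43 members, against 11.5% of all genes. Wild-type arrays 1 and 3 were thus further apart over these genes than over the rest of the array.

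Cell cycle genes outside the list were counted in 3 further groups, also chosen with earlier results of these data known. Of 36 measured genes of DNA replication and S phase, 31 had lower mean log2 signals in knockout glands, with a median log2 change of -0.39, and for 9 the knockout arrays lay below the wild-type arrays without overlap. Of 39 measured mitosis genes, 32 were lower, with a median of -0.44, and 11 lay below without overlap and 1 above. Of 27 measured genes of G1 control, the Rb and E2F families and p53 targets, 17 were lower, the median was -0.06, and 2 lay below and 2 above. Over all genes 7.07% lay below and 7.09% above, so the G1 counts were near the share over all genes. None of the 24, 28 and 21 genes tested in limma passed the threshold in either direction, and at an unadjusted p under 0.05 there were 6, 8 and 0 lower genes and 0 higher ones, beside 6.25% and 5.06% of all tested probe sets.

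Cdt1, which loads the Mcm helicase at origins, had the smallest p of the replication group, with 1677, 1758 and 1908 in knockout glands, against 2595, 3044 and 3172 in wild-type glands. Values within each group were close, and the groups stood well apart (log2 change -0.71 ± 0.17 SE, limma adjusted p = 0.167). Rnaseh2a, a subunit of the nuclease that removes RNA from DNA, had a log2 change of -0.73, the uracil glycosylase gene Ung one of -0.48 and Uhrf1, which maintains DNA methylation after replication, one of -1.02. Kif20a, a motor of cell division, had 199, 1027 and 200 in knockout glands, against 1079, 1575 and 1739 in wild-type glands (log2 change -1.99 ± 0.58 SE, limma adjusted p = 0.271). Its probe set is of the same kind as the brightest one of Plk1. Its mean log2 value in knockout glands lay under the dim filter (signal about 582), so Kif20a was tested only through its wild-type values. Without knockout array 2, which lay just under wild-type array 1, Kif20a passed (-2.75, limma adjusted p = 0.0287). The 2 knockout values left in that fit, 199 and 200, were both under the filter signal. Kif20a did not pass when any other single array was left out (limma adjusted p between 0.228 and 0.62).

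Prc1, which bundles spindle microtubules, had a log2 change of -0.78, the securin gene Pttg1 one of -0.54 and the lamin gene Lmnb1 one of -0.85. Of the G1 group, the E2F partner Tfdp1 and Myc had log2 changes of -0.29 and -0.49, while Ccng2 and Mnat1 had 0.26 and 0.40. For all of these the adjusted p in limma lay above 0.05. The signals of Tfdp1, Myc, Prc1, Pttg1, Lmnb1 and Rnaseh2a were lower on every knockout array than on any wild-type array, and those of Ccng2 were higher. For Lmnb1, knockout array 1 and wild-type array 1 were nearly equal (1470 and 1471).

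**Figure D4:**
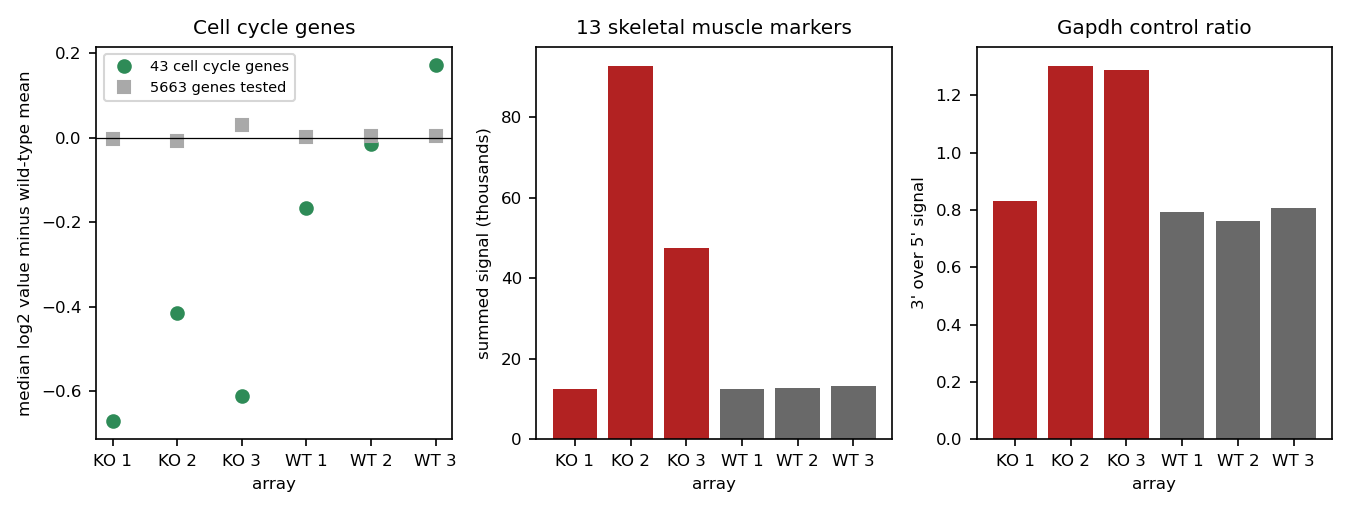
Left, the median log2 value minus the wild-type mean per array, for the 43 members (circles) and for all tested genes (squares). Middle, the summed MAS5 signal of 13 skeletal muscle markers, and right, the 3' over 5' signal ratio of the Gapdh control. Knockout array 1 is lowest for the members at -0.67. Its muscle sum is near those of the wild-type arrays, and its ratio of 0.831 lies above every wild-type array, the highest of which is at 0.806.

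Other features of the samples also differed between knockout and wild-type arrays, some of them only on knockout arrays 2 and 3. The Gapdh 3' over 5' signal ratio, a sign of RNA integrity, was 0.831, 1.30 and 1.29 on knockout arrays, against 0.794, 0.762 and 0.806 on wild-type arrays. That of the Actb control was 1.32, 1.69 and 1.72 on knockout arrays, against 1.17, 1.22 and 1.14 on wild-type arrays, so both ratios were higher on every knockout array. That of Tfrc was 1.71, 2.85 and 4.36 on knockout arrays, against 2.19, 1.93 and 2.35 on wild-type arrays, and that of Pcx was 5.71, 24.7 and 10.8 on knockout arrays, against 4.01, 3.61 and 5.55 on wild-type arrays. Knockout array 1 was thus below the wild-type arrays for Tfrc and just above them for Pcx. Skeletal muscle markers, 13 of 13 measured, summed to 12365, 92838 and 47609 on knockout arrays, against 12464 to 13265 on wild-type arrays. Knockout array 1 had the lowest of these ratios and of the muscle sums in its group, with Gapdh, Actb and Pcx ratios still above every wild-type array. With it as the single knockout array the median log2 change of the members was -0.67, and 33 of 43 members lay below all wild-type arrays on it and 4 above, where 25.8% and 23.3% of all genes did.

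Adrenal cortex markers (7 of 8 measured, such as Fdx1, Cyp21a1 and Hsd3b1) summed to between 497411 and 575251 on knockout arrays and between 471631 and 570898 on wild-type arrays. Medulla markers (5 of 7, with Chgb, Pnmt and Scg2 the brightest) summed to between 191924 and 204481 on knockout arrays and between 161741 and 178917 on wild-type arrays. Capsule and stromal markers (10 of 10, such as Dcn) summed to between 56722 and 66801 on knockout arrays and between 41469 and 52602 on wild-type arrays. Endothelial markers (8 of 10, such as Eng) summed to between 31841 and 41271 on knockout arrays and between 29898 and 31192 on wild-type arrays. These 3 sums were higher on every knockout array than on any wild-type array. Of single markers, 1 of 5 medulla, 2 of 10 stromal and 2 of 8 endothelial ones separated the groups upward, beside 7.09% of all genes. Of the medulla markers that one was Chgb, with means of 103998 on knockout and 74187 on wild-type arrays, while Pnmt averaged 36439 on knockout and 42136 on wild-type arrays. Macrophage markers (13 of 13) summed to 24689, 45085 and 37734 on knockout arrays, against 23245, 20989 and 25595 on wild-type arrays, with overlap at knockout array 1. Of these 13, 11 were higher in knockout glands, with a median log2 change of 0.63, where 4127 of all 8251 genes were higher. In limma 5 of 10 tested were higher at an unadjusted p under 0.05, against 5.06% of all tested probe sets. At the adjusted threshold 0 of the 10 passed. Sums overlapped between knockout and wild-type arrays too for markers of lymphocytes, erythroid cells, adipocytes and Schwann cells, with 10 of 12, 7 of 10, 6 of 8 and 5 of 7 measured. The erythroid sums were 93875, 115694 and 80702 on knockout arrays, against 87552, 178044 and 162446 on wild-type arrays. Of these 7 genes, 4 had lower and 3 higher mean log2 signals in knockout glands, with a median log2 change of -0.45. No marker was at 0 on any array. The part of these markers and of the 3' over 5' ratio in the cell cycle values was not tested.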

How the data were processed

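Each sample was 1 single-colour Affymetrix array of total adrenal RNA labelled as biotinylated cRNA, per the labels' protocols. The authors deposited 1 linear intensity for each probe set. MAS5 is the tool that the submitters' processing notes name, and its version, scaling target and detection calls were not used here. Their 2% trimmed mean was near 2501 on every array, so they were not scaled again. Of 12488 probe sets, 66 controls were left out. Gene names came from the platform annotation (10833 probe sets with 1 symbol, 396 with several, 1193 not listed), updated by Entrez identifier through a RefSeq table. Promoter windows are from RefSeq, build GRCm38.p6.

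Values were taken as log2(signal + 16), probe sets under the 40th percentile of mean log2 signal were left out, and the other 7453 were tested in limma 3.58.1 under R 4.3.3 (eBayes with intensity trend, Benjamini-Hochberg threshold 0.05). The script was tested on simulated data. Precision rests on 3 arrays a group. The limma p-values use the spread between these samples, with each variance drawn towards a trend over all tested probe sets. A plain linear model without that step called 0 probe sets and gave Cks2 an adjusted p of 0.348.

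Members, lists and roles were chosen with earlier results of these data known. Values on every array are given for members past the threshold, the 16 tested members with the smallest unadjusted p and those of highest mean signal. For other lists up to 4 genes with the smallest p are named, and for marker lists the 3 brightest. Other members given in full were added after their values were seen. Alternatives were other pseudocounts, filters, scalings and variance models, the replicate number as a block, arrays left out and other choices of probe set. Preferring probe sets with a plain suffix was chosen after seeing the data.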

Additional observations from a re-analysis of the deposited data

How the results depend on the processing

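The log2 changes of the 33 tested members kept their direction under every pseudocount, filter, scaling and variance model tried, and the median over all 43 members stayed between -0.76 and -0.48 in all settings. The signs that turned were those of members near 0 when single arrays were left out: Plk1 ranged from -0.0013 to 0.49, Mki67 from -0.33 to 0.16, Cdkn1a from -0.054 to 0.26 and Ccna2 from -0.15 to 0.11. The cause was not tested.

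The calls were less stable than the directions. The 1 member past the threshold, Cks2, became 0 members, 0 lower, with no filter, with quantile, median or cyclic loess scaling, with eBayes without trend and with a plain linear model. There were 2 members, 1 lower and 1 higher (Ccnd2), with a pseudocount of 64 and with the filter at the 60th percentile, which tested 21 members, 9 of them lower at an unadjusted p under 0.05. Leaving out 1 array gave 0 to 3 members, 0 to 2 lower and 0 to 1 higher, while all probe sets called ranged from 15 to 141 (9 to 92 lower and 6 to 49 higher). All probe sets called numbered 17 (11 lower and 6 higher) with eBayes without trend and 0 (0 lower and 0 higher) with the plain model, which still had 14 members lower at an unadjusted p under 0.05. Without knockout arrays 2 and 3 there were 13 (8 lower and 5 higher) and 1 member, Tk1, where the lone knockout array is assumed to vary like the wild-type arrays, and 37 members lay outside the wild-type range, 33 of them below it.

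With the replicate number as a block, all probe sets called were 57 (27 lower and 30 higher) and 2 members passed, 1 lower (Cdkn1c) and 1 higher (Ccnd2, adjusted p = 0.0438). Deviations of same-numbered arrays correlated with r of 0.26, -0.04 and -0.04, and those of differently numbered arrays with r from -0.18 to 0.25. As these are deviations from means of 3 arrays, they cannot decide whether same-numbered samples share more than a number. Groups of 3 arrays and the lack of detection calls limit what can be said of dim genes.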
